A study of Mus musculus with 4 samples.

Results

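The splicing factor genes of the SRSF, hnRNP and SF3 families were taken by their symbols: every gene named Srsf, Hnrnp or Sf3a/Sf3b followed by its member number or letters. The deposited tables held 40 such genes among 54532, namely 11 SRSF, 20 hnRNP and 9 SF3 genes. The cells were PMN-MDSC, the polymorphonuclear kind of myeloid-derived suppressor cells, which resemble neutrophils and dampen T cells, taken from spleens of newborn C57BL/6 mice. The NECA group held 2 libraries of cells treated over 5 days by NECA, an agonist of the adenosine receptors, and the DMSO group held 2 libraries of cells given DMSO, a common solvent, and no NECA. Each library came from a lysate of 300000 cells, amplified by SMARTer chemistry. The labels give no genotype besides the strain, and leave out how many pups were pooled and whether replicates are separate animals or cultures. The p-values therefore measure the spread between these samples, which may be technical.

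An intron is removed by the spliceosome, which is built anew on each transcript. SR proteins (the SRSF family) bind exons and help the spliceosome to choose the neighbouring splice sites, while hnRNP proteins coat nascent RNA and often block or shift that choice. The SF3a and SF3b complexes are parts of the U2 small nuclear ribonucleoprotein (snRNP), and SF3b holds the branch point of the intron. Many SR and hnRNP genes control their own level by splicing their RNA into forms that are destroyed by nonsense-mediated decay. In neutrophils, retention of introns is a known way of lowering transcripts during maturation.

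Total counts were 18712625 and 15864120 with NECA, against 18583918 and 18492030 with DMSO. The 12 neutrophil markers on the list held 13.3% and 13.5% of all counts with NECA, against 12.7% and 13.1% with DMSO. All 12 had a log2 fold change above 0, 11 of them without overlap and 10 at an unadjusted p under 0.05, and 2 were higher at an adjusted p under 0.05 by edgeR's test. Of 45 listed markers of monocytes and macrophages, B cells, T and NK cells and erythroid cells, 41 were tested, and all 41 had a log2 fold change below 0, 39 of them without overlap of the groups and 35 at an unadjusted p under 0.05. At an adjusted p under 0.05 by edgeR's test 10 were lower with NECA, all of them monocyte and macrophage markers, and 0 were higher. The 45 markers summed to 760 and 300 CPM (read counts scaled to library size) with NECA, against 2040 and 1265 CPM with DMSO. Of this, erythroid markers held 349 and 21.2 CPM with NECA, against 1198 and 498 CPM with DMSO. Monocyte and macrophage markers held 310 and 245 CPM with NECA, against 661 and 577 CPM with DMSO. Of the markers of these 4 lineages, Ebf1, Cd3e and Klrb1c were at 0 in at least 1 NECA library. The part of these cells in the values below was not tested, and in bulk RNA a change in the number of cells of a type cannot be told apart from a change of RNA per cell.

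No splicing factor gene passed the test between NECA and DMSO. Of the 40 genes, 39 had enough counts to be tested with edgeR's quasi-likelihood test, and 0 were higher and 0 lower at a Benjamini-Hochberg adjusted p under 0.05, taken over all 13083 genes tested. Over all genes 1.33% were called by this rule, so that a count of 0 in 39 genes is close to that background. At an unadjusted p under 0.05 there were 4 of 39 genes (10.3%), against 15.7% of all genes tested. By DESeq2 0 members were called likewise, against 2.28% of all genes tested. At an unadjusted p under 0.05 it gave 2 members, with the share over all genes not taken. The median log2 fold change was -0.00089 over the members and -0.0065 over all genes, and the median size of the change, whatever its sign, was 0.06 over the members and 0.15 over all genes. The members are more abundant (median of 125 CPM) than the genes tested (median of 13.3 CPM), and their median standard error (SE) was 0.06 against 0.17.

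The intervals give a range for each gene on its own, without adjustment for the number of genes. They rest on 2 libraries per group, whose spread may be technical, and on TMM scaling. With library size alone as the scale, the median log2 fold change of the members was -0.07. The 95% interval of every one of the 39 log2 fold changes lay within a 1.5-fold change in either direction, and that of 36 genes within a 1.3-fold change. The lowest bound belonged to Hnrnpa1 (0.74-fold) and the highest to Hnrnph3 (1.44-fold). The highest of the 4 libraries exceeded the lowest by a median of 1.11-fold over the members, and by 1.42-fold for Hnrnph3, where it was largest. The median difference between replicates, without regard to sign, was 0.06 on the log2 scale with NECA and 0.07 with DMSO, and for 14 members the NECA over DMSO difference was larger than both replicate differences of that gene (35.9% of the 39, against 32.3% of all genes tested). Groups did not overlap for 17 of the 39 genes. For 8 both NECA libraries were higher than both DMSO libraries, against 22.4% of all genes tested, and for 9 both were lower, against 24.3% of all genes tested. These counts are near the background for 39 genes.

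**Figure D1:**
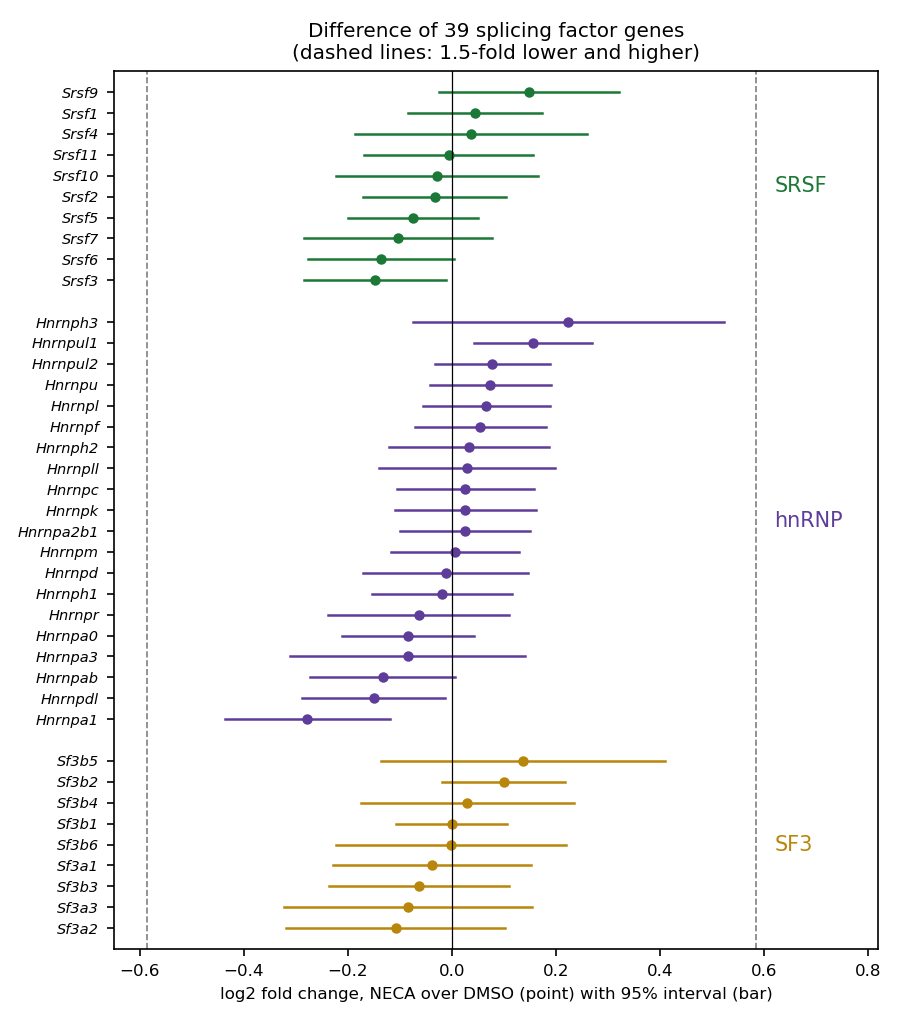
Log2 fold change of NECA over DMSO (x axis) for the 39 tested genes, by family, as a point with its 95% interval as a bar. All intervals lie between the dashed lines at a 1.5-fold change, and those of Hnrnpa1, Hnrnpdl, Srsf3 and Hnrnpul1 leave out 0 without the genes passing after adjustment.

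The 4 genes at an unadjusted p under 0.05 were Hnrnpa1, Hnrnpdl, Srsf3 and Hnrnpul1. On GRCm38 they lie at chr15:103240432-103246692 (Hnrnpa1, ENSMUSG00000046434), chr5:100033577-100039664 (Hnrnpdl, ENSMUSG00000029328), chr17:29032628-29043373 (Srsf3, ENSMUSG00000071172) and chr7:25721165-25754757 (Hnrnpul1, ENSMUSG00000040725). Hnrnpa1, a repressor of exons and the best known antagonist of SR proteins, had 74.5 and 77.3 CPM with NECA, against 88.6 and 95.4 CPM with DMSO. Both NECA libraries were below both DMSO libraries. The log2 fold change was -0.28 (SE 0.07, 95% interval -0.44 to -0.12), with an adjusted p = 0.088 by edgeR's test. Its value was -0.35 with library size alone as the scale (adjusted p = 0.0334 by edgeR's test), where the median over all genes was -0.08. With no filter on low counts the value of Hnrnpa1 was -0.28 (adjusted p = 0.0158 by edgeR's test). Both settings put the gene past the threshold, and they called 1.82% and 3.92% of all genes tested. Leaving out single libraries gave -0.32 to -0.22 for Hnrnpa1. Hnrnpul1, an RNA-binding relative of the nuclear scaffold protein hnRNP U, had 364 and 359 CPM with NECA, against 329 and 320 CPM with DMSO. Here both NECA libraries lay above both DMSO libraries, with a log2 fold change of 0.16 (SE 0.05, 95% interval 0.04 to 0.27; adjusted p = 0.161 by edgeR's test). It was 0.08 with library size alone.

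Srsf3, the smallest SR protein, which also serves in the export of RNA, had 134 and 139 CPM with NECA, against 148 and 154 CPM with DMSO. The groups did not overlap, and the log2 fold change was -0.15 (SE 0.06, 95% interval -0.28 to -0.01; adjusted p = 0.278 by edgeR's test). Hnrnpdl, a relative of the RNA stability factor hnRNP D, had 117 and 114 CPM with NECA, against 127 and 129 CPM with DMSO. Its groups did not overlap either, at a log2 fold change of -0.15 (SE 0.06, 95% interval -0.29 to -0.01; adjusted p = 0.272 by edgeR's test). Its close relative Hnrnpd, whose gene lies 54638 bases away on chromosome 5, had 124 and 113 CPM with NECA, against 115 and 124 CPM with DMSO. The groups of Hnrnpd overlapped.

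The start regions of Hnrnpa1, Hnrnpul1 and Srsf3 are shown because these genes had the smallest p-values among members below 0, above 0 and in the SRSF family. Each run is the 250 bases before the RefSeq start on GRCm38.p6, 5′ to 3′ on the gene's strand, and capitals mark CCAAT boxes (CCAAT) and the core of the cAMP response element (TGACG) on either strand. The region of Hnrnpa1 is chr15:103240147-103240396 on the plus strand, that of Hnrnpul1 chr7:25754760-25755009 on the minus strand and that of Srsf3 chr17:29032410-29032659 on the plus strand.
Hnrnpa1 promoter: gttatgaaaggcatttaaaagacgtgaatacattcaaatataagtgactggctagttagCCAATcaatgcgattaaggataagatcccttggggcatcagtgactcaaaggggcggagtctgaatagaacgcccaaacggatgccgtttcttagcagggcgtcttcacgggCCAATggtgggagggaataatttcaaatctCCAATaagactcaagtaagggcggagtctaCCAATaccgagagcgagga
Hnrnpul1 promoter: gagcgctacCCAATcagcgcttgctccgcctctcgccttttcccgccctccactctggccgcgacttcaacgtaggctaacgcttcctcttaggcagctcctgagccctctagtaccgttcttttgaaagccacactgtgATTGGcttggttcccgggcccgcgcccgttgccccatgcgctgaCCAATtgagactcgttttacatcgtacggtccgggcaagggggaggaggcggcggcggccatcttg
Srsf3 promoter: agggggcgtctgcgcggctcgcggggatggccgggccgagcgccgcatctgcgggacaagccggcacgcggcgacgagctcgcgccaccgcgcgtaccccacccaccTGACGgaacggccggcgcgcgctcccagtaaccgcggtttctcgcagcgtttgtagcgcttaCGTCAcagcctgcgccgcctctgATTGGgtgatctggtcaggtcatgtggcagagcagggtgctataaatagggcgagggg
The Hnrnpa1 region holds 4 CCAAT boxes, at 191, 79, 49 and 19 bases before the start, and has a GC content of 46%. The Hnrnpul1 region holds 3, at 241, 110 and 66 bases before the start, the second of them on the other strand, and has a GC content of 61.6%. The Srsf3 region has 1 CCAAT box and 2 TGACG cores, at 143 and 81 bases before the start, and a GC content of 69.6%. The region of Hnrnpdl holds neither motif.

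RefSeq start regions were found for 36 of the 40 genes, in 49 windows, some genes having more than 1. Their median GC content was 64%, against 52.4% over all 32851 windows in the table, and their median ratio of observed to expected CG dinucleotides was 0.933, against 0.373. The whole cAMP response element (TGACGTCA, its own reverse complement), which the factor CREB binds downstream of cAMP, was in 0 of the 49 windows and in 1.55% of all windows. Its core TGACG, counted on both strands, was in 40.8% of the members' windows and 17.8% of all. CCAAT was in 46.9% against 33.8%, the GC box GGGCGG in 75.5% against 32.7%, the ETS site CCGGAAGT in 18.4% against 2.88% and the TATA box TATAAA in 8.16% against 12.4%. These are matches of letters, and whether their shares follow from the GC content of the windows was not tested.

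Levels can be compared between genes only per length, for which the deposited FPKM (fragments scaled to gene length and library size) were used. Over the tested genes the mean FPKM spanned 47.9-fold. Sf3b2 was highest, with 127 and 120 FPKM with NECA against 117 and 113 FPKM with DMSO. Hnrnpa2b1 followed, with 87.4 and 96.7 FPKM with NECA against 87.6 and 92.3 FPKM with DMSO, and Hnrnpa0 with 89.2 and 85.2 FPKM against 89.7 and 94.2 FPKM. These last 2 did not differ beyond their spread. Hnrnpr was lowest, at 2.41 and 2.47 FPKM with NECA, against 2.44 and 2.63 FPKM with DMSO. The order depended on the length: for 35 of the 39 genes the FPKM corresponded, within 0.1%, to the union of all exons in GENCODE M21, introns retained in some annotated transcripts included, and for Hnrnpm, Hnrnpul2, Sf3b2 and Srsf7 to a shorter length. Per kilobase of the longest coding transcript, Hnrnpa2b1 ranked 1, Srsf5 ranked 2 and Sf3b2 ranked 5, while Hnrnpr stayed last of the tested genes at rank 39.

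**Figure D2:**
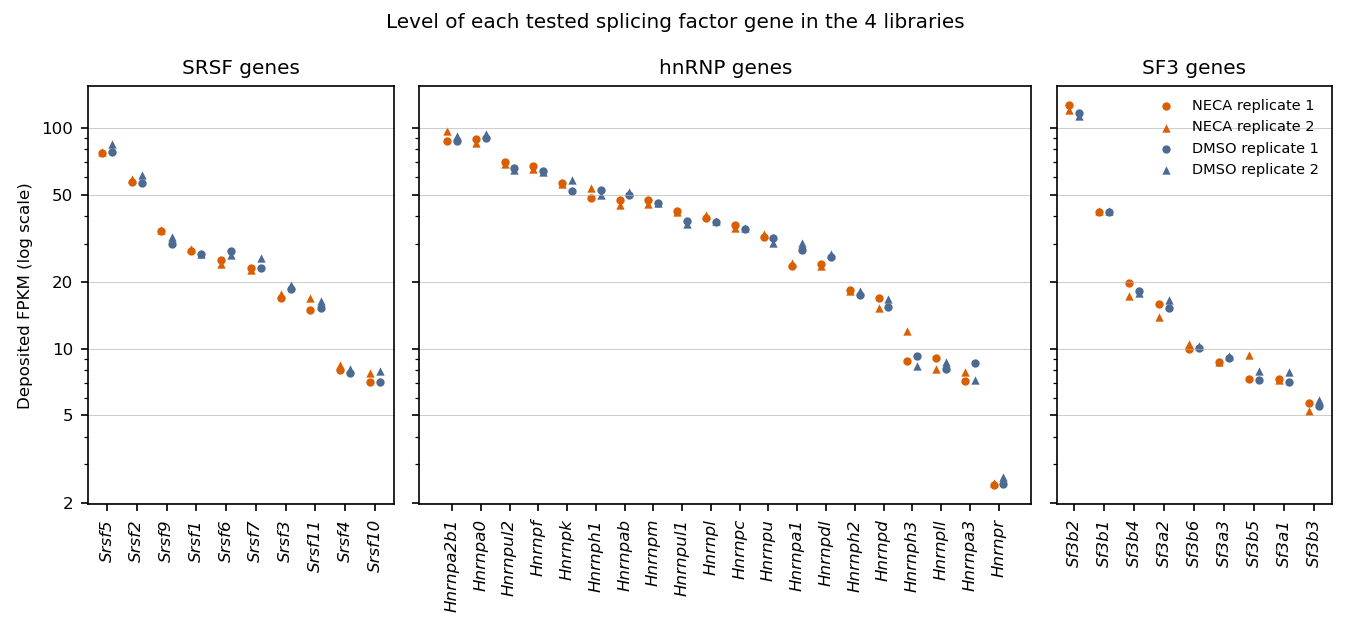
Deposited FPKM (y axis, log scale) of the 39 tested genes in each of the 4 libraries, ordered by mean within the family, with circles for replicate 1 and triangles for replicate 2. Values of 1 gene lie close together in all libraries, while genes of a family differ by 10.6-fold (SRSF), 36.6-fold (hnRNP) and 21.4-fold (SF3) in mean FPKM.

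Among the SR proteins, Srsf5 and Srsf2 were the most abundant per length. Srsf5 had 77.0 and 78.1 FPKM with NECA, against 78.1 and 84.4 FPKM with DMSO, and made up 26.4% and 26.2% of the summed SRSF level with NECA, against 26.8% and 27.3% with DMSO. Srsf2, an activator of exons, had 56.8 and 58.9 FPKM with NECA, against 56.6 and 61.0 FPKM with DMSO. The FPKM of both genes overlapped between groups. In CPM, Srsf5 had 307 and 311 with NECA, against 312 and 338 with DMSO, just without overlap, at a log2 fold change of -0.07 (95% interval -0.20 to 0.05). The summed SRSF level was 292 and 298 FPKM with NECA, against 292 and 309 FPKM with DMSO. In the FPKM order of the family, 4 of 9 neighbouring genes had overlapping ranges over the 4 libraries.

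Srsf1, the prototype of the family, had 159 and 161 CPM with NECA, against 155 and 155 CPM with DMSO, a log2 fold change of 0.05 (95% interval -0.08 to 0.17). Srsf9, its nearest relative and the highest member of the family by fold change, had 56.7 and 57.3 CPM with NECA, against 49.6 and 53.3 CPM with DMSO. Its groups did not overlap, at 0.15 (SE 0.08, 95% interval -0.03 to 0.32; adjusted p = 0.406 by edgeR's test). Srsf7, which resembles Srsf3 but has a zinc knuckle, had 52.9 and 51.5 CPM with NECA, against 53.2 and 58.9 CPM with DMSO, without overlap (-0.10, 95% interval -0.28 to 0.08). Srsf6 had 122 and 116 CPM with NECA, against 133 and 128 CPM with DMSO (-0.14, 95% interval -0.28 to 0.0045; adjusted p = 0.335 by edgeR's test), while Srsf4, with a like pair of RNA-binding domains, had 28.6 and 29.9 CPM against 27.9 and 29.1 CPM (0.04).

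The groups of Srsf6 did not overlap and those of Srsf4 did. Srsf10 (-0.03) and Srsf11 (-0.0060) overlapped between groups too. Srsf12, a relative of Srsf10, had 0 and 0 counts with NECA, against 2 and 0 counts with DMSO, and was too low to test. A count of 0 allows up to 0.165 and 0.194 CPM in NECA replicates 1 and 2 and 0.159 CPM in DMSO replicate 2, for counting error only.

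The hnRNP genes of the A and B group code for the core proteins of hnRNP particles. Hnrnpa2b1, the most abundant of all members in counts, had 575 and 635 CPM with NECA, against 578 and 610 CPM with DMSO, a log2 fold change of 0.03 (95% interval -0.10 to 0.15). Relative to Hnrnpa2b1, the FPKM of Hnrnpa1 was 0.271 and 0.254 with NECA, against 0.320 and 0.327 with DMSO. Per kilobase of the longest coding transcript it was 0.117 and 0.110 with NECA, against 0.138 and 0.141 with DMSO. Hnrnpab had 132 and 125 CPM with NECA, against 138 and 143 CPM with DMSO, without overlap (-0.13, 95% interval -0.27 to 0.0059; adjusted p = 0.339 by edgeR's test). Hnrnpa0 stood at -0.08 and Hnrnpa3 at -0.08. Counts of Hnrnpa3 are uncertain: it had 705 and 658 counts with NECA, against 897 and 738 counts with DMSO. The 19 annotated copies that share part of its sequence held 1808 and 1633 counts with NECA, against 2010 and 2213 counts with DMSO. With their counts added, the log2 fold change became -0.11 (adjusted p = 0.448 by edgeR's test), and with DMSO replicate 1 left out Hnrnpa3 alone stood at 0.06.

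Hnrnph1, Hnrnph2 and Hnrnpf, which bind runs of G, stood at -0.02, 0.03 and 0.06. Hnrnph1 had 283 and 311 CPM with NECA, against 309 and 293 CPM with DMSO, and Hnrnpf had 206 and 197 CPM with NECA, against 195 and 193 CPM with DMSO. Only Hnrnpf was without overlap among these 3. Hnrnph3, a shorter relative, had the highest log2 fold change of all members, 0.22 (SE 0.14, 95% interval -0.07 to 0.52; adjusted p = 0.477 by edgeR's test). It had 27.8 and 37.7 CPM with NECA, against 29.4 and 26.6 CPM with DMSO, so that NECA replicate 2 alone stood above the other libraries. Without NECA replicate 2 its value was -0.0090, and without NECA replicate 1 it was 0.43.

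**Figure D3:**
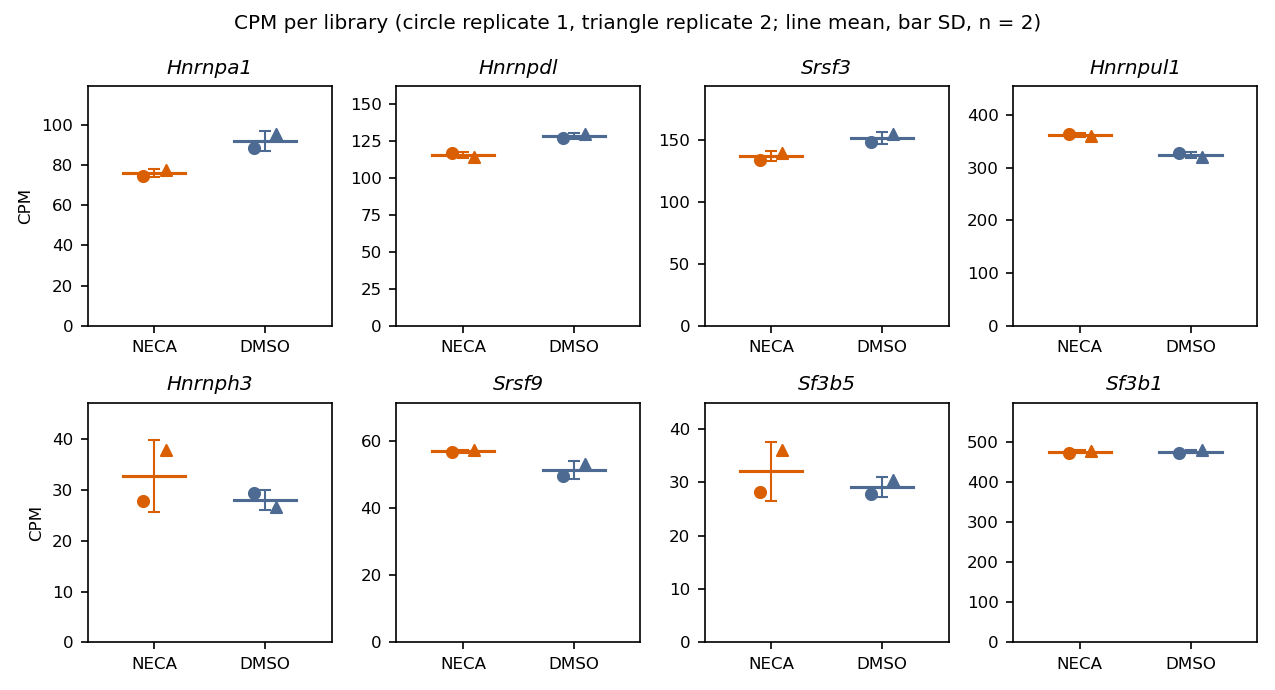
CPM (y axis, from 0) of 8 genes in each library, NECA left and DMSO right, with circles for replicate 1, triangles for replicate 2, a line at the mean and a bar for the SD (n = 2). Groups are apart for Hnrnpa1, Hnrnpdl, Srsf3, Hnrnpul1 and Srsf9, NECA replicate 2 stands above the other libraries for Hnrnph3 and Sf3b5, and the libraries of Sf3b1 lie between 474 and 479 CPM.

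Hnrnpu, the nuclear scaffold protein, had 373 and 385 CPM with NECA, against 368 and 351 CPM with DMSO (0.07, 95% interval -0.04 to 0.19), and Hnrnpul2 had 399 and 392 CPM with NECA, against 377 and 372 CPM with DMSO (0.08, 95% interval -0.03 to 0.19). In all 3 genes of the U group both NECA libraries were above both DMSO libraries, as in 22.4% of all genes tested, and none was called. With library size alone as the scale, the log2 fold changes of all genes had a median of -0.08, and those of Hnrnpu and Hnrnpul2 were 0.0017 and 0.0055. Hnrnpl, which binds CA repeats, had 232 and 240 CPM with NECA, against 225 and 226 CPM with DMSO (0.07). Hnrnpll, known in lymphocytes for switching Ptprc exons, had 107 and 94.7 CPM with NECA, against 94.6 and 103 CPM with DMSO (0.03). Hnrnpk, Hnrnpc, Hnrnpm and Hnrnpr lay between -0.06 and 0.03, with overlapping groups. The summed hnRNP level was 774 and 778 FPKM with NECA, against 765 and 779 FPKM with DMSO.

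The SF3 genes ranged from -0.11 for Sf3a2 to 0.14 for Sf3b5 in their log2 fold changes. Sf3b1, the large subunit that clamps the branch point, had 474 and 479 CPM with NECA, against 474 and 479 CPM with DMSO. Its log2 fold change was 0.0002 (SE 0.05, 95% interval -0.11 to 0.11), closest to 0 of all members. Sf3b2, which touches the RNA around the branch point, had 410 and 388 CPM with NECA, against 379 and 366 CPM with DMSO. Its groups did not overlap, at 0.10 (95% interval -0.02 to 0.22; adjusted p = 0.409 by edgeR's test). Sf3b4, an RNA-binding subunit, had 42.7 and 37.5 CPM with NECA, against 39.8 and 38.9 CPM with DMSO (0.03).

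Subunits of the same complex differed widely in level. The FPKM of Sf3b2 was 22.4 and 22.9 times that of Sf3b3, the scaffold subunit, with NECA, against 21.3 and 19.3 times with DMSO. Per kilobase of the longest coding transcript these ratios were 9.32 and 9.53 with NECA, against 8.83 and 8.01 with DMSO, since the deposited FPKM rests on a shorter length than the exon union for Sf3b2 and on the whole union for Sf3b3. Sf3b5, a small subunit, had 28.2 and 36.0 CPM with NECA, against 27.7 and 30.5 CPM with DMSO. Its log2 fold change of 0.14 (95% interval -0.14 to 0.41) became -0.05 when NECA replicate 2 was left out and 0.31 when NECA replicate 1 was. The SF3a genes Sf3a1, Sf3a2 and Sf3a3 stood at -0.04, -0.11 and -0.08, and Sf3b3 and Sf3b6 at -0.06 and -0.0009. Summed, the SF3 level was 244 and 235 FPKM with NECA, against 231 and 231 FPKM with DMSO. Sf3b2 alone made up 52.2% and 51.2% of this sum with NECA, against 50.6% and 48.9% with DMSO. The sum and this share also rest on the shorter length used for Sf3b2, while the other SF3 genes have the whole exon union. Of the 9 SF3 genes, 4 had a log2 fold change above 0 and 5 below.

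**Figure D4:**
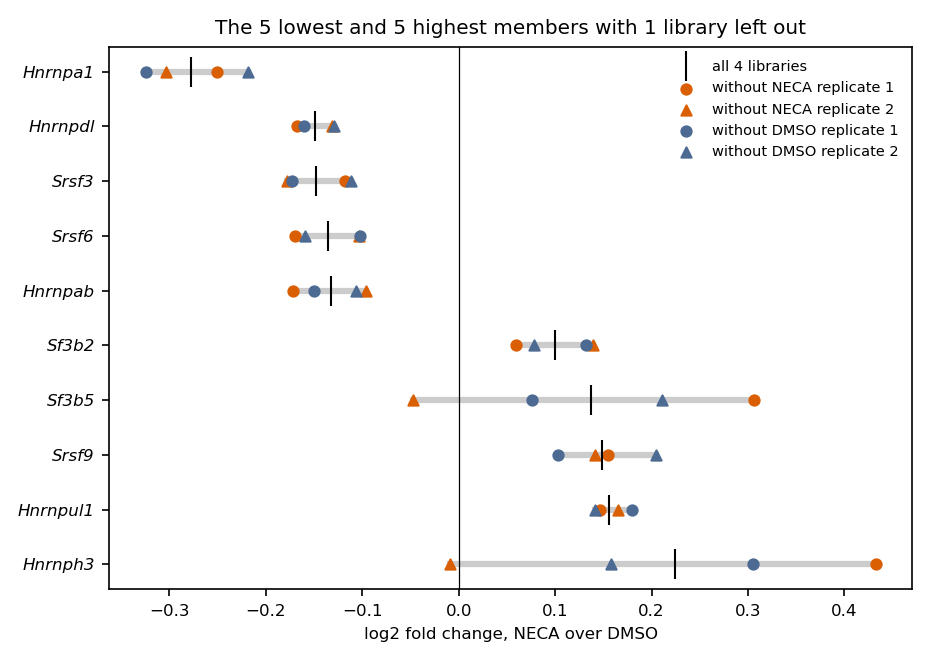
Log2 fold change of NECA over DMSO (x axis) of the 5 lowest and 5 highest members with all 4 libraries (black tick) and with each library left out (symbols). Hnrnph3 and Sf3b5 pass 0 without NECA replicate 2, at -0.0090 and -0.05, while the other 8 genes keep their sign.

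Other genes of splicing, on 6 lists of 132 genes, gave the same count. Of 130 tested, 0 were higher and 0 lower by edgeR's test over all genes, against 1.33% of all genes tested called in either direction. The median log2 fold change of the 130 was -0.0091. At an unadjusted p under 0.05 there were 14 (10.8%), against 15.7% of all genes tested. Among U1 and U2 snRNP, Sm core and U2AF genes (16 tested, median -0.03) the smallest p-values were those of the Sm proteins Snrpe, at 8.46 and 9.82 CPM with NECA against 14.2 and 12.4 CPM with DMSO (-0.54, adjusted p = 0.15), and Snrpb (-0.21, adjusted p = 0.181). Among genes of the tri-snRNP, the Prp19 complex and the helicases (29 tested, median -0.01) they were those of the helicase Ddx17, at 662 and 674 CPM with NECA against 590 and 584 CPM with DMSO (0.19, adjusted p = 0.0802), and of the GTPase Eftud2 (-0.32, adjusted p = 0.176). Ddx17 was called by DESeq2 and with no filter on low counts, settings that called 2.28% and 3.92% of all genes tested.

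Among the kinases, importers and methylases that act on SR and hnRNP proteins (16 tested, median 0.05) the smallest p-values were those of the SR protein kinase Srpk1, at 55.4 and 49.2 CPM with NECA against 46.5 and 44.8 CPM with DMSO (0.20, adjusted p = 0.299), and of the arginine methylase Prmt1 (-0.31, adjusted p = 0.303). Among SR-like regulators (22 tested, median -0.0005) they were those of Luc7l3 (0.23, adjusted p = 0.184) and Rbm5 (0.12, adjusted p = 0.321). Among hnRNP proteins with other symbols and further RNA-binding regulators (30 tested, median -0.0051) they were those of the cold-inducible Cirbp (-0.30, adjusted p = 0.121) and of Celf1 (0.17, adjusted p = 0.231). Among genes of nonsense-mediated decay (17 tested, median -0.03) they were those of Gas5, a noncoding RNA that this pathway degrades, at 15.2 and 16.1 CPM with NECA against 19.0 and 23.2 CPM with DMSO (-0.43, adjusted p = 0.161), and of Smg9, a partner of the decay kinase Smg1 (0.11, adjusted p = 0.402). Calls of these genes with a single library left out are not read, since such a fit leaves a group without replicates. All p-values in these lists are from edgeR's quasi-likelihood test, adjusted over all genes.

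Gene counts do not show how an RNA was spliced. In GENCODE M21, 20 of the 40 members (50%) have a transcript marked for nonsense-mediated decay, against 20.8% of the protein-coding genes in the tables, and 29 (72.5%) have one with a retained intron, against 41.6%. By family, a decay transcript is annotated for 9 of 11 SRSF, 10 of 20 hnRNP and 1 of 9 SF3 genes. Counts of these forms are pooled with those of the coding ones. The members and the protein-coding genes were not matched for level or number of annotated transcripts. Of 14 tested markers of dividing cells, 0 were called (median log2 fold change of 0.02), against 1.33% of all genes tested. Their summed level was 1503 and 1710 CPM with NECA, against 1548 and 1561 CPM with DMSO.

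Counts of some members are uncertain beside other annotated genes. For 11 members, 45 annotated copies that share part of their sequence were in the tables. For 4 of these members (Hnrnpa1, Hnrnpa3, Hnrnpk and Srsf5) the copies held more than 5% of the member's own counts. Summed with its copies, Hnrnpa1 stood at -0.29 (adjusted p = 0.0719 by edgeR's test). Exons of 16 members overlap those of another gene in the tables. In 8 of them that gene codes for a protein, on the opposite strand in 7 (Hnrnpab, Hnrnph3, Hnrnpk, Hnrnpu, Sf3a2, Sf3b3 and Srsf2) and on the same strand for Hnrnpm.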

How the data were processed

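Per the file headers, the deposited tables give each Ensembl gene a raw count and an FPKM in every library. The submitters' processing notes list HISAT, StringTie and edgeR (no versions) with mm10 and GRCm38. How reads were counted, with or without strand, and what was done with reads shared by genes is not given in the sources used here. The deposited FPKM were the counts divided by 1 length per gene and 1 scale per library. Those scales lay within 0.42% of total count times TMM factor.

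Counts were tested in R 4.3.3 with edgeR 4.0.16: filterByExpr (minimum count 10), TMM scaling, glmQLFit and glmQLFTest for NECA against DMSO, no replicate block, 2 residual degrees of freedom, and Benjamini-Hochberg adjustment over 13083 genes with a threshold of 0.05. CPM are on TMM-scaled library sizes. SE is the log2 fold change over the square root of F. The 95% intervals use the t distribution with the total degrees of freedom of the fit. These exceed the residual ones because edgeR borrows spread from other genes, and were at least 11.8 for the tested members. The test was tested on simulated data, and the outcome is not reported here or used as support. Alternatives were DESeq2 1.42.0, its size factors, library size alone, no filter, limma 3.58.1 on log2(FPKM + 1), a replicate block, and each library left out. Copies were annotated genes that share at least 100 words of 50 bases, and 25% of their transcript, with a member. Coordinates are from GENCODE M21 or, for start regions, RefSeq GRCm38.p6.

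Named were members called or at unadjusted p under 0.05, the 5 highest and 5 lowest fold changes, the 3 most abundant per family, related genes, untested members and the 2 smallest p-values per other list. The members and lists were chosen with earlier results of these data known. Replicates of a group were not copies (chi-square over its degrees of freedom, NECA 5.01 and DMSO 6.36).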

Additional observations from a re-analysis of the deposited data

How the results depend on the processing

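Over all genes, 46 were higher and 128 lower. Counts were 21 higher and 217 lower with library size alone. This moved the share of higher genes among those called to 8.82% (26.4% with TMM). With no filter on low counts 22344 genes were tested, of which 285 were higher and 590 lower. Counts were 141 and 157 with the DESeq2 test (47.3% higher), and 1 and 0 with limma on log2(FPKM + 1). With the replicate block they were 123 and 298; the numbers are not known to pair libraries (correlation of 0.02 across genes between the replicate differences of NECA and DMSO), and with the block 0 members and 0 other splicing genes were called. Leaving out single libraries gave 8 to 227 higher and 45 to 594 lower. Of members, 0 were called higher and 0 lower with all libraries, against 1 lower (Hnrnpa1) with library size alone and with no filter, and 0 to 1 higher (Hnrnph3, without NECA replicate 1) and 0 lower when 1 library was left out. Of the other splicing genes 1 was called higher with the DESeq2 test and with no filter, and 0 to 2 higher and 0 to 1 lower when 1 library was left out. The cause of these differences was not tested. Of 401 values of members under the alternatives 41 had another sign than with all libraries, 12 of them with library size alone. The 95% intervals reached a median of 1.1-fold to either side of a member's estimate, before any adjustment for the number of genes tested.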
